A study of Drosophila melanogaster with 36 samples.

Results

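The genes of 10 RNA-binding proteins were followed across sorted glia and whole brain of young and old Drosophila melanogaster: mbl, bru1, bru2, bru3, cpo, shep, elav, fne, Rbp9 and Pabp2. They are 10 of the 17562 genes of the count table and were found in it by symbol. The set was selected on measured values of these libraries, because mbl stood out among the genes that changed with age in sorted GMR10E12 glia and elav, a neuronal marker, differed between sorted glia and whole brain and between the ages in sorted GMR86E01 glia. Relatives and other regulators of the same processes were added to these genes. The values of mbl and elav in those contrasts, and in every comparison that contains them, are therefore given without a test. The remaining tests are those of a fit over all genes, on genes that were picked with earlier results known.

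Proteins of this kind bind short motifs in pre-mRNA or mRNA and decide which exons, 3′ ends and transcripts a cell keeps. Muscleblind (mbl) is a zinc finger splicing regulator whose mammalian relatives are sequestered in myotonic dystrophy. Its gene also yields an abundant circular RNA in flies, which a count per gene cannot tell from the linear mRNA. Reverse transcription of these libraries was primed with oligo-dT, and circular RNA was not measured separately. The Bruno genes bru1, bru2 and bru3 belong to the CELF family. The ELAV/Hu family has 3 fly members, elav, fne and Rbp9, of which elav is the classical pan-neuronal marker, and elav and fne direct neuron-specific splicing and the use of distal 3′ ends. Couch potato (cpo) and alan shepard (shep) encode RNA-binding proteins prominent in the nervous system, and Pabp2 encodes the nuclear poly(A)-binding protein that controls the length of new tails.

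The libraries came from pooled brains of female flies of 3 GAL4 driver lines at day 5 (d5) and day 70 (d70). GMR56F03 and GMR10E12 label ensheathing glia and GMR86E01 labels astrocyte-like glia, the ensheathing drivers predominantly rather than exclusively. GFP+ cells were sorted from the dissociated brains (sorted glia), and the unsorted cell suspension of the same brains was the control (whole brain). Each of the 12 groups (sorted GMR56F03, GMR10E12 and GMR86E01 at d70 and at d5, and the whole brain of each line at d70 and at d5) had 3 replicates, 36 libraries in all, and actinomycin D was present in the dissociation described for sorted cells to block new transcription. Levels are CPM, the counts of a gene per 1000000 counts of the library, on totals scaled with the trimmed mean of M values (TMM). In such bulk samples a smaller share of cells of a type and less RNA per cell cannot be told apart.

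Library totals ran from 912285 to 17060052 counts and 7970 to 12130 genes were detected in a library. The whole brain libraries GMR10E12 d70 replicates 1 and 3 stood apart by the share of counts on ribosomal RNA genes, 14.3% and 11.5%, against 3.03% to 6.46% in the others. Sorted GMR86E01 d5 replicate 1 was shallow, with 1514977 counts and the fewest genes detected. Markers of other cells were also detected after the sort: the summed level of 15 neuron markers was 1218 to 6117 CPM in the 18 sorted libraries and 10804 to 14378 CPM in the 18 whole brain libraries, and 3 hemocyte markers summed to 505 to 4752 CPM in sorted libraries and to 17.3 to 239 CPM in whole brain. The glial marker repo had 168 to 612 CPM in sorted libraries and 32.3 to 107 CPM in whole brain. Sums of 6 astrocyte markers were 2562 to 27672 CPM in sorted libraries and 666 to 5693 CPM in whole brain, and sums of 5 ensheathing glia markers were 758 to 2881 CPM in sorted libraries and 387 to 842 CPM in whole brain. At d70 against d5 many of these markers were lower in sorted glia. Of 6 astrocyte and 5 ensheathing glia markers, 6 and 4 fell in GMR56F03, 3 and 3 in GMR10E12, and 6 and 1 in GMR86E01. None rose at the threshold used, an adjusted p below 0.05. The mean of egr, an ensheathing glia marker, was higher at d70 in sorted GMR10E12 (111 against 64.3 CPM) and GMR56F03 (135 against 115 CPM). It was lower in sorted GMR86E01 (70.6 against 86.1 CPM). In whole brain the astrocyte marker sum also had a lower mean at d70 (1059 against 2719 CPM). The part of these marker changes in the age differences was not tested. Where nothing says that replicates were separate cohorts, p-values measure the spread between these pools.

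Most of the 10 genes are very long. On the BDGP6 (dm6) annotation, bru3 spans 281494 bases of chromosome arm 3L (13521907 to 13803400, minus strand) with a longest intron of 144855 bases, and mbl spans 162828 bases of 2R (17216549 to 17379376, plus strand). Next are bru1 with 138435 bases (2L, 12175004 to 12313438, plus strand), shep with 122124 (3L, 5155821 to 5277944, minus strand) and cpo with 99061 (3R, 17919832 to 18018892, plus strand). The gene bru2 spans 53310 bases (2L, 12344219 to 12397528, plus strand) and lies 30780 bases downstream of bru1 on the same strand. The median protein-coding gene spans 2157 bases, and these 6 genes are at or above the 97.9th percentile. The ELAV family genes are shorter, with 32941 bases for fne (X, 12917477 to 12950417, plus strand), 13992 for elav (X, 509235 to 523226, minus strand) and 13673 for Rbp9 (2L, 2954762 to 2968434, plus strand). Pabp2 is compact at 2944 bases (2R, 8131431 to 8134374, plus strand). Exons of elav share 27.9% of their bases with lncRNA:enrr on the same strand and 6.28% with arg on the opposite strand, and exons of Pabp2 share 9.59% with Obp44a on the opposite strand. Whether strand was used in counting is not stated. How far reads of those stretches entered the counts of elav and Pabp2, and so their levels per kb, is uncertain.

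Levels per length of annotated exon gave the order of the genes in a group. In whole brain, shep led in each of the 6 groups, with a median of 141 CPM per kb over the 18 libraries, followed in median by fne at 108 and Rbp9 at 72.2 CPM per kb. In the same 18 libraries bru1 had 13.5 and bru2 4.49 CPM per kb, the lowest levels of the set. The order was different in sorted glia: mbl led in GMR10E12 d70 with 105 CPM per kb and in GMR86E01 at d70 and d5 with 54.0 and 21.5 CPM per kb, cpo led in GMR56F03 d70 with 43.1 CPM per kb, and shep led in GMR10E12 d5 and GMR56F03 d5 with 24.2 and 20.4 CPM per kb. Neighbours in this order often overlapped between replicates and were not tested.

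**Figure D1:**
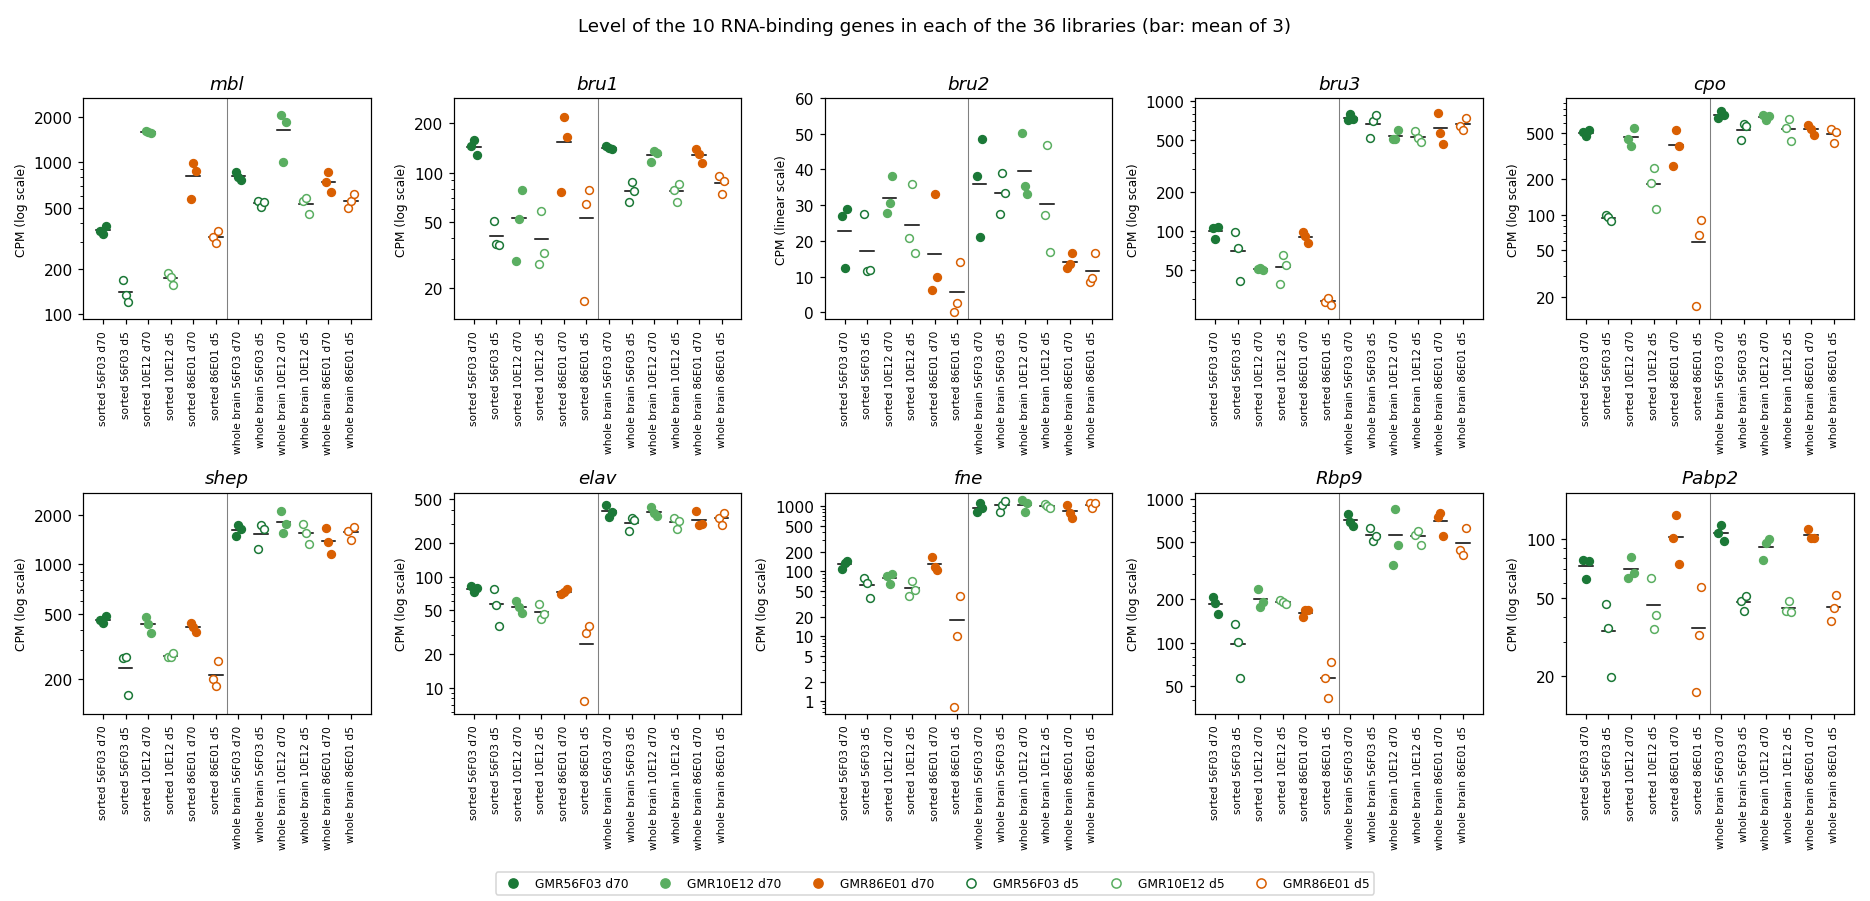
Level of each gene in CPM in each of the 36 libraries, with sorted groups left of whole brain and d70 (filled) left of d5 (open); bars are means of 3 and axes are logarithmic except for bru2. Sorted GMR10E12 d70 libraries sit at 1555 to 1609 CPM of mbl, and fne is 0.832 to 165 CPM in the sorted libraries and 652 to 1237 CPM in whole brain.

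Most of these RNAs were lower in sorted glia. In sorted glia against whole brain, with both ages and the 3 lines together, 9 of the 10 genes fell and none rose at an adjusted p below 0.05 (edgeR's quasi-likelihood test, Benjamini-Hochberg adjustment), where 59.1% of the 10412 genes tested were called. The median log2 difference was −1.76 over the 10 genes and −0.07 over all genes tested. The choice of elav rests on this contrast, which also contains the sorted GMR10E12 values of mbl, so nothing is read from the count.

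The neuronal ELAV family fell furthest together with bru3 and shep. The level of fne was 0.832 to 165 CPM (median 74.7) in the 18 sorted libraries and 652 to 1237 CPM (median 1032) in the 18 whole brain libraries. The ranges did not overlap, and the log2 difference was −3.86 ± 0.27 (SE; adjusted p = 2.2e-14). The level of bru3 was 26.9 to 107 CPM (median 59.9) in sorted libraries and 470 to 813 CPM (median 598) in whole brain, again without overlap (log2 −3.35 ± 0.14, adjusted p = 2.1e-19). For shep the levels were 160 to 484 CPM (median 336) in sorted glia and 1146 to 2094 CPM (median 1620) in whole brain (log2 −2.28 ± 0.11, adjusted p = 4.0e-18). Rbp9, which is also known for a role in the fly ovary, had 41.5 to 235 CPM (median 168) in sorted glia and 346 to 852 CPM (median 582) in whole brain (log2 −2.10 ± 0.15, adjusted p = 2.1e-14). As a description, elav had 7.49 to 82.6 CPM (median 56.1) in sorted glia and 257 to 441 CPM (median 339) in whole brain, a log2 difference of −2.68.

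The remaining genes differed less between sorted glia and whole brain. The level of cpo was lower in sorted glia by a log2 difference of −1.41 ± 0.23 (adjusted p = 1.7e-06) and that of bru1 by −0.59 ± 0.17 (adjusted p = 0.0035). As a description, since its sorted GMR10E12 values led to its choice, mbl differed by −0.90 over the 36 libraries, with −1.53 in GMR56F03, −0.83 in GMR10E12 and −0.30 in GMR86E01. The difference between lines was not tested. For bru1 the log2 difference was −0.41 in GMR56F03, −1.12 in GMR10E12 and −0.18 in GMR86E01, and only the GMR10E12 value passed (adjusted p = 0.0017). Pabp2 differed by −0.29 ± 0.12 (adjusted p = 0.0399), a call lost in 35 of 47 alternatives, 28 of them fits that left out 1 library (adjusted p up to 0.110), and bru2 by −0.47 ± 0.24 (adjusted p = 0.0932). The difference of bru2 passed without sorted GMR86E01 d5 replicate 3 (adjusted p = 0.0365) or d70 replicate 2 (adjusted p = 0.0167).

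**Figure D2:**
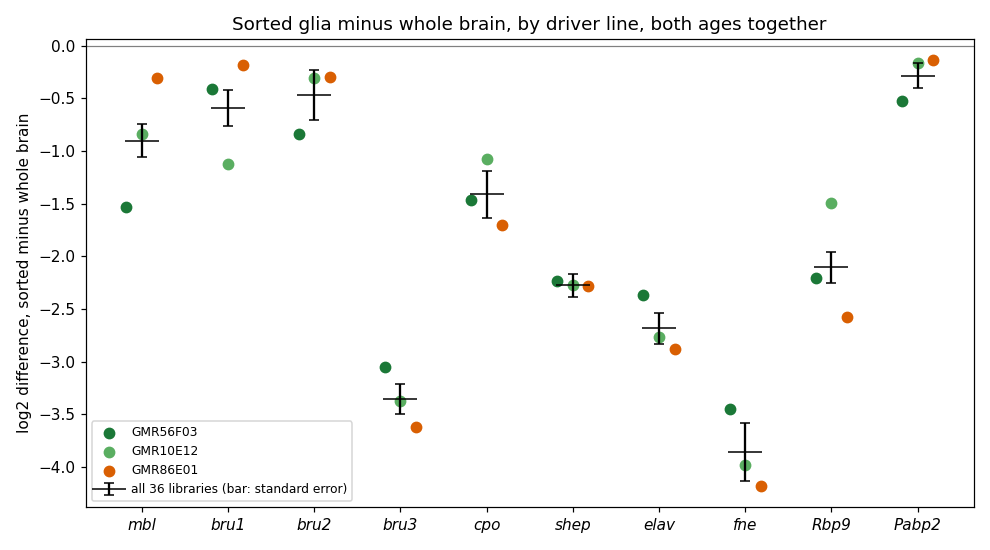
Log2 difference of sorted glia minus whole brain for each gene, by driver line (points) and over all 36 libraries (black bar with standard error), where negative values are lower in sorted glia. The ELAV family, bru3 and shep lie below −1.4 in each of the 3 lines, while mbl runs from −1.53 in GMR56F03 to −0.30 in GMR86E01.

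The ELAV family genes fne and Rbp9 were also set beside the 15 neuron markers. The counts of fne were 0.000683 to 0.0374 of the neuron marker sum in sorted libraries (median 0.0192) and 0.0603 to 0.101 of it in whole brain (median 0.0782), without overlap. The counts of Rbp9 were 0.0145 to 0.0603 of that sum in sorted libraries (median 0.0428) and 0.0280 to 0.0731 in whole brain (median 0.0469), so that the ranges overlapped. These are ratios within a library and do not depend on its scaling.

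With age, cpo rose in each of the 3 sorted lines. In sorted GMR56F03 glia, cpo had 505, 465 and 525 CPM at d70, against 98.9, 96.0 and 88.1 CPM at d5. The ages were far apart relative to the spread of replicates, and the log2 difference was 2.42 ± 0.15 (adjusted p = 1.6e-05). In sorted GMR86E01 glia, cpo had 259, 530 and 380 CPM at d70, against 16.6, 67.5 and 90.6 CPM at d5 (log2 2.72 ± 0.54, adjusted p = 0.0225), and in sorted GMR10E12 glia 444, 382 and 544 CPM at d70, against 185, 247 and 112 CPM at d5 (log2 1.34 ± 0.28, adjusted p = 0.0178). The ages did not overlap in any of the 3 sorted lines. The call in GMR86E01 was lost without d5 replicate 2, d70 replicate 2 or d70 replicate 3 (adjusted p = 0.0920, 0.0531 and 0.0657), and that in GMR10E12 without d5 replicate 1 (adjusted p = 0.0686).

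The rise of mbl was steepest in sorted GMR10E12 glia, the value for which it was chosen. There mbl had 1609, 1583 and 1555 CPM at d70, against 186, 177 and 157 CPM at d5. The replicates of each age lay within a narrow band, and the log2 difference of 3.19 is a description. In sorted GMR56F03 glia mbl had 352, 340 and 379 CPM at d70, against 169, 134 and 121 CPM at d5, with no overlap (log2 1.36 ± 0.17, adjusted p = 7.3e-04). In sorted GMR86E01 glia mbl had 573, 994 and 878 CPM at d70, against 325, 294 and 354 CPM at d5, also without overlap (log2 1.34 ± 0.23, adjusted p = 0.0130), a call lost without d5 replicate 1, d5 replicate 2 or d70 replicate 3 (adjusted p = 0.0562, 0.0727 and 0.0673).

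Whole brain of the GMR10E12 line showed a high level of mbl too. It had 2039, 1010 and 1843 CPM at d70, against 553, 582 and 454 CPM at d5. In the whole brain of GMR56F03 the levels were 862, 804 and 760 CPM at d70, against 560, 506 and 545 CPM at d5, and in that of GMR86E01 739, 862 and 637 CPM at d70, against 499, 556 and 623 CPM at d5. The ages did not overlap in any of the 3 lines, and the d70 levels of GMR10E12 lay above those of both other lines. The libraries with 2039 and 1843 CPM are the same 2 that held 14.3% and 11.5% ribosomal RNA counts, whose part in the level was not tested, and the third, at 4.28% ribosomal RNA, had 1010 CPM. Over the 18 whole brain libraries mbl rose with age by 0.86 ± 0.17 on the log2 scale (adjusted p = 0.0016), and without those 2 libraries by 0.56 (adjusted p = 1.4e-04).

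Other marker levels changed in sorted GMR10E12 glia with age as well. The sum of 4 surface glia markers was 2014 to 2743 CPM at d70 and 1214 to 1492 CPM at d5, with 2 of 4 markers called higher, and that of 4 photoreceptor markers was 5001 to 7589 CPM at d70 and 2952 to 4642 CPM at d5, with 1 called higher and 1 lower. The sum of the 3 hemocyte markers was 2049 to 2971 CPM at d70 and 608 to 1775 CPM at d5, with 1 marker called higher. The part of these cell types in the level of mbl was not tested. The ratio of mbl to the neuron marker sum was 0.373 to 0.538 at d70 and 0.0300 to 0.0416 at d5 in these libraries.

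In sorted GMR56F03 glia at d70 against d5, 6 of the 10 genes rose and none fell, where 15.0% of the 8629 genes tested were called, and the median log2 difference was 1.04 over the 10 genes and 0.03 over all. Besides cpo and mbl these were bru1, shep, fne and Pabp2. The level of bru1, known as a translational repressor in the oocyte and a splicing regulator in flight muscle, was 145, 158 and 128 CPM at d70, against 50.9, 36.9 and 36.4 CPM at d5. The ages were clearly separated (log2 1.82 ± 0.19, adjusted p = 2.8e-04). The level of shep was 457, 440 and 484 CPM at d70, against 270, 275 and 160 CPM at d5 (log2 0.98 ± 0.21, adjusted p = 0.0117).

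The calls of fne and Pabp2 in GMR56F03 were less firm. The level of fne was 108, 132 and 143 CPM at d70, against 78.5, 66.5 and 38.2 CPM at d5 (log2 1.10 ± 0.26, adjusted p = 0.0196), and the call was lost without d70 replicate 2 or 3 (adjusted p = 0.0678 and 0.0675). Pabp2 had 78.2, 62.2 and 77.6 CPM at d70, against 46.5, 35.3 and 19.9 CPM at d5 (log2 1.15 ± 0.29, adjusted p = 0.0260), and its call was lost without d5 replicate 2 or without any of the d70 replicates (adjusted p = 0.0532 to 0.0852). The ages of both genes did not overlap. Rbp9 had 207, 189 and 158 CPM at d70, against 136, 101 and 57.0 CPM at d5, a log2 difference of 0.94 ± 0.29 just past the threshold (adjusted p = 0.0525), and it passed in 6 of 7 alternative settings and without d5 replicate 1. For elav (log2 0.50), bru3 (0.54) and bru2 (0.47) the ages overlapped and the test was not passed. The neuron markers summed to 3826 to 3936 CPM at d70 and 3932 to 6117 CPM at d5 in these libraries, with 1 of 15 called higher and 2 lower. The part of neuronal RNA in these age differences was not tested.

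In sorted GMR10E12 glia at d70 against d5, 3 of the 10 genes rose (mbl, cpo and shep) and none fell, where 9.58% of the 8609 genes tested were called. The level of mbl in this contrast led to its choice, so nothing is read from the count. The level of shep was 482, 435 and 384 CPM at d70, against 274, 274 and 288 CPM at d5, without overlap (log2 0.64 ± 0.17, adjusted p = 0.0407). Its call was lost in 5 of the 6 fits that left out 1 library, the exception being d70 replicate 3 (adjusted p up to 0.133). The ELAV family gave small log2 differences here, 0.15 ± 0.24 for elav, 0.54 ± 0.26 for fne and 0.08 ± 0.18 for Rbp9, and bru3 gave −0.04 ± 0.25. The test was also not passed by bru1 (0.45 ± 0.40, adjusted p = 0.554), bru2 (0.42 ± 0.36, adjusted p = 0.539) or Pabp2 (0.60 ± 0.27, adjusted p = 0.215). Neuron markers summed to 2940 to 4312 CPM at d70 and 4466 to 5225 CPM at d5, with 4 of 15 called lower and none higher.

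In sorted GMR86E01 glia at d70 against d5, 5 of the 10 genes rose (mbl, bru3, cpo, shep and Rbp9) and none fell, where 6.44% of the 8585 genes tested were called. This contrast is one of those that led to the choice of elav, so nothing is read from the count. All 10 differences were positive, with a median of 1.51, against 0.11 over all genes tested. The level of bru3 was 97.1, 90.5 and 80.6 CPM at d70, against 28.3, 30.4 and 26.9 CPM at d5, tight within each age (log2 1.66 ± 0.26, adjusted p = 0.0092), and it was called in each of the 6 fits that left out 1 library. Rbp9 had 150, 168 and 168 CPM at d70, against 56.6, 41.5 and 73.8 CPM at d5 (log2 1.51 ± 0.26, adjusted p = 0.0130), and missed the threshold without d70 replicate 3 (adjusted p = 0.0663). The level of shep was 438, 414 and 390 CPM at d70, against 200, 182 and 260 CPM at d5 (log2 0.96 ± 0.20, adjusted p = 0.0283), a call lost in 5 of 6 such fits, all but that without d5 replicate 3 (adjusted p up to 0.111).

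Neuron markers rose in the same libraries. Their sum was 3423 to 4717 CPM at d70 and 1218 to 2234 CPM at d5, with 8 of 15 called higher, none lower and all 15 positive, with a median log2 difference of 1.28. The part of neuronal RNA in the rise of the 5 genes was not tested. As a description, elav had 70.2, 72.4 and 77.0 CPM at d70, against 7.49, 31.1 and 35.9 CPM at d5. The level of fne was 165, 115 and 103 CPM at d70, against 0.832, 10.0 and 42.3 CPM at d5, where the lowest value is 1 count in the shallow replicate 1 (log2 2.73 ± 0.80, adjusted p = 0.0845). Pabp2 had 102, 133 and 74.6 CPM at d70, against 16.6, 32.4 and 56.9 CPM at d5 (log2 1.52 ± 0.44, adjusted p = 0.0786). Without d5 replicate 3, the highest of the d5 libraries for both genes, fne passed at 4.33 (adjusted p = 0.0183) and Pabp2 at 2.04 (adjusted p = 0.0402). Pabp2 passed in 5 of 7 alternative settings and fne in 2 of 6. Neither bru1 (adjusted p = 0.148) nor bru2 (adjusted p = 0.511) passed the test, although bru1 did in 3 of 7 alternative settings, and bru2 had no count in d5 replicate 1.

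**Figure D3:**
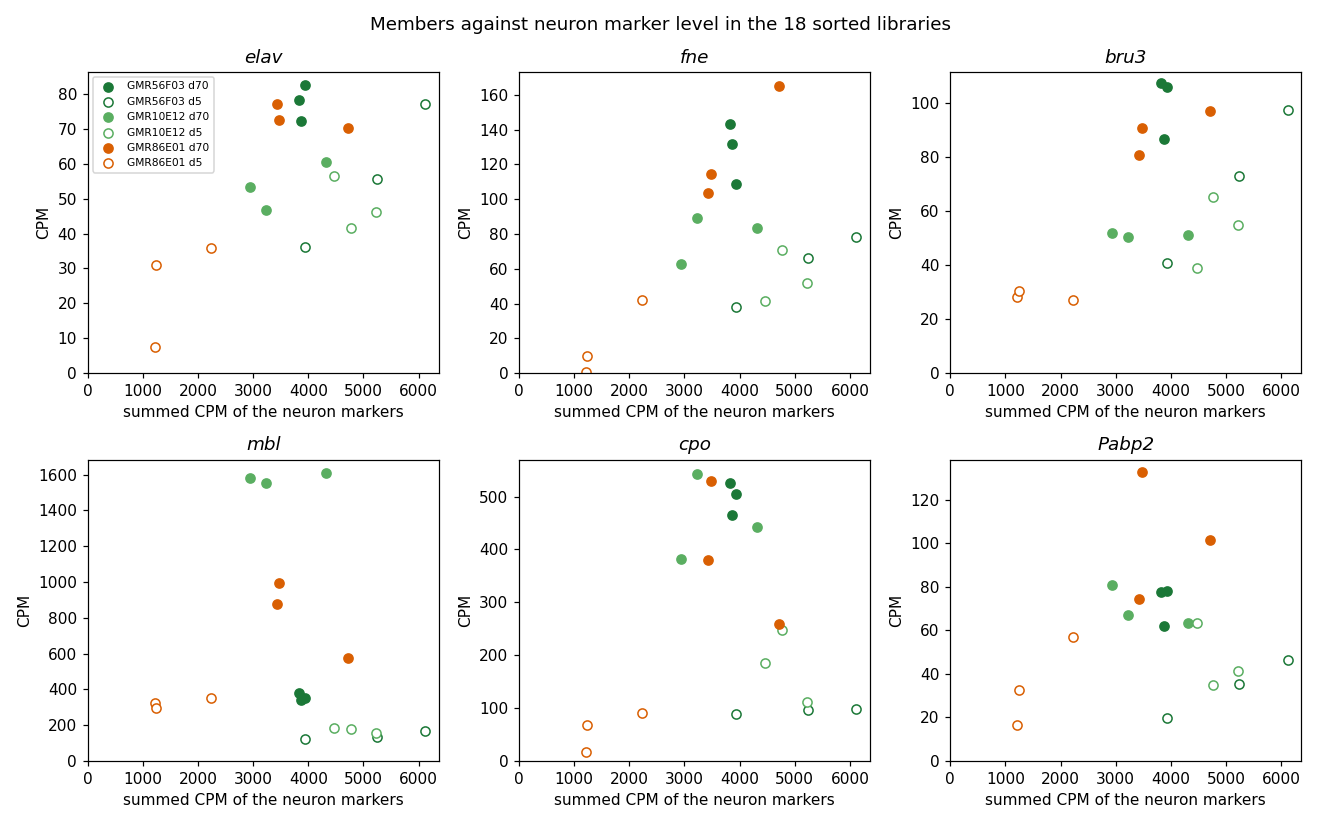
Level of 6 of the genes in CPM against the summed CPM of 15 neuron markers in the 18 sorted libraries, d70 filled and d5 open. In GMR86E01 each of the 6 genes, mbl included, is lower at d5 (marker sums 1218 to 2234 CPM) than at d70 (3423 to 4717 CPM). In GMR10E12 mbl is 1555 to 1609 CPM at d70 with marker sums of 2940 to 4312 CPM and 157 to 186 CPM at d5 with sums of 4466 to 5225 CPM. In GMR56F03 fne is 108 to 143 CPM at d70 (sums 3826 to 3936 CPM) and 38.2 to 78.5 CPM at d5 (3932 to 6117 CPM).

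In whole brain at d70 against d5, with line as a covariate, 4 of the 10 genes rose (mbl, bru1, cpo and Pabp2) and none fell, where 21.4% of the 9650 genes tested were called. The median log2 difference was 0.26 over the 10 genes and 0.02 over all. Pabp2 was the gene of the set with the smallest adjusted p, with 78.4 to 118 CPM (median 101) in the 9 libraries at d70 and 38.3 to 51.8 CPM (median 44.3) in the 9 at d5. The ages did not overlap, and the log2 difference was 1.14 ± 0.08 (adjusted p = 3.5e-08), with 1.18, 1.06 and 1.22 in GMR56F03, GMR10E12 and GMR86E01 alone. Mean levels of Obp44a, whose exons overlap those of Pabp2, were lower at d70 in each of the 6 pairs of groups, with 111 to 610 CPM at d70 and 439 to 1052 CPM at d5. The part of reads from the shared stretch in the level of Pabp2 was not tested.

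The level of bru1 in whole brain was 115 to 145 CPM (median 135) at d70 and 66.5 to 95.9 CPM (median 78.2) at d5, also without overlap (log2 0.71 ± 0.08, adjusted p = 1.1e-05). The level of cpo differed by 0.28 ± 0.10 (adjusted p = 0.0456), a call lost in 21 of 30 alternatives, 13 of them fits that left out 1 of the 18 libraries (adjusted p up to 0.0995). The ELAV family and bru3 and shep did not pass: the log2 differences were 0.19 ± 0.10 for elav, −0.15 ± 0.12 for fne, 0.27 ± 0.15 for Rbp9, 0.01 ± 0.11 for bru3 and 0.03 ± 0.10 for shep. Nor did bru2, at 0.25 ± 0.20 (adjusted p = 0.394). Rbp9 was called without GMR10E12 d70 replicate 1 (log2 0.36, adjusted p = 0.0278) and without the 2 libraries rich in ribosomal RNA (log2 0.43, adjusted p = 0.0049). In GMR10E12 alone, 3 genes in all and none of the 10 were called, with log2 differences of 1.66 for mbl (adjusted p = 0.257) and 0.75 for bru1 (adjusted p = 0.273).

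**Figure D4:**
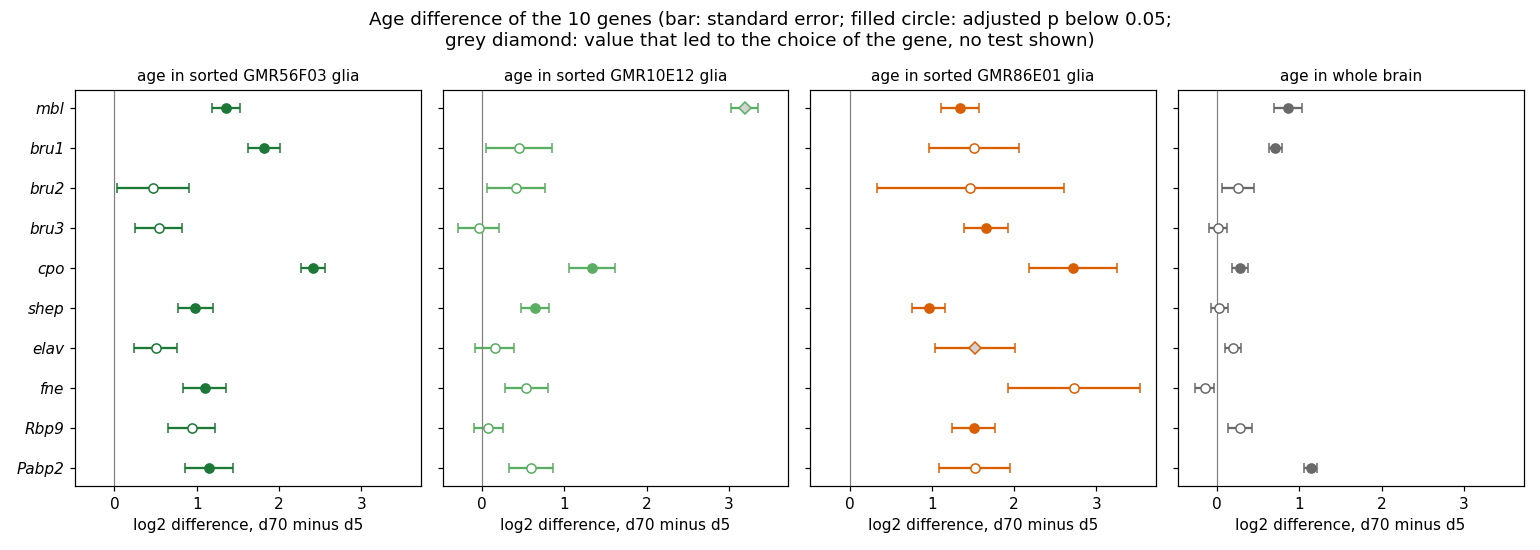
Log2 difference of d70 minus d5 for each gene in the 3 sorted lines and in whole brain, with standard errors; filled circles passed an adjusted p of 0.05, and grey diamonds mark mbl in GMR10E12 (3.19) and elav in GMR86E01 (1.52), shown without a test. In sorted glia 29 of 30 differences are above 0, those of the grey diamonds included, so nothing is read from that count. In whole brain Pabp2 has the highest value, 1.14.

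Whether the age difference itself differed between the sorted lines was tested as an interaction. Between GMR10E12 and GMR56F03, 1 of the 10 genes was called, where 0.691% of the 9265 genes tested were called. It was mbl, with a difference of 1.85 given as a description, so nothing is read from the count. The difference of cpo, −1.06 ± 0.33 (adjusted p = 0.165), passed without GMR10E12 d5 replicate 3 (log2 −1.30, adjusted p = 0.0269). Between GMR10E12 and GMR86E01, 3 of the 10 were called, where 8.50% of the 9259 genes tested were called: mbl with 1.95, again a description from which nothing is read, bru3 with −1.61 ± 0.34 (adjusted p = 0.0108) and Rbp9 with −1.34 ± 0.30 (adjusted p = 0.0139). Both bru3 and Rbp9 had the smaller age difference in GMR10E12, where the median log2 age difference of the neuron markers was −0.49, against 1.28 in GMR86E01. The part of neuronal RNA in these interactions was not tested. Between GMR56F03 and GMR86E01 edgeR called none of the 10, nor did DESeq2, and 1 gene had an unadjusted p below 0.05, where 2.64% of the 9122 genes tested were called. The log2 difference of mbl between those 2 lines was −0.00, that of cpo −0.31 (95% interval −1.53 to 0.91) and that of bru3 −1.15 (−1.99 to −0.30, adjusted p = 0.134), which passed without GMR56F03 d5 replicate 3 (adjusted p = 0.0388).

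The age difference in sorted glia was also set against that in whole brain of the same line. In GMR56F03, 1 of the 10 genes was called, where 1.91% of the 9394 genes tested were called. This was cpo, whose age difference was larger in sorted glia by 1.97 ± 0.20 on the log2 scale (adjusted p = 0.0011). It was called in each of the 12 fits that left out 1 library and was lost in 1 fit over the 36 libraries (adjusted p = 0.0717). Whole brain of this line had 666, 758 and 701 CPM of cpo at d70, against 429, 596 and 564 CPM at d5.

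In GMR86E01, 3 of the 10 genes were called, where 4.28% of the 9369 genes tested were called: bru3 with a larger age difference in sorted glia by 1.75 ± 0.28 (adjusted p = 0.0084), shep by 1.12 ± 0.25 (adjusted p = 0.0294) and cpo by 2.56 ± 0.60 (adjusted p = 0.0347). The neuron markers rose with age in the sorted libraries of this line, as given above, and their part in these differences was not tested. The call of cpo was lost in 9 of the 12 fits that left out 1 library (adjusted p up to 0.107), and that of shep in 8 of 12 (adjusted p up to 0.0873). The call of bru3 was kept in the 12 fits and the 7 alternative settings. In GMR10E12 edgeR called none of the 10, where 0.466% of the 9225 genes tested were called. DESeq2 called 1 (mbl), and 2, mbl among them, had an unadjusted p below 0.05. This contrast contains the value that led to the choice of mbl, so nothing is read from these counts. There mbl gave a log2 difference of 1.54, and 2.28 without the 2 whole brain libraries rich in ribosomal RNA, both as descriptions.

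Other RNA-binding genes gave a background to the set. Of all genes tested for age, 15.0% were called in sorted GMR56F03, 9.58% in GMR10E12, 6.44% in GMR86E01 and 21.4% in whole brain. In sorted glia against whole brain 59.1% were called. The lists here and in the next paragraph were not tested as sets, so nothing is read from their counts. Of 20 other tissue-restricted regulators, 2 rose with age in sorted GMR56F03 glia (sm, log2 0.96, and Sxl, 0.78) and none fell, 2 rose in GMR10E12 (Sxl, 1.08, and ps, 0.98), and 1 fell in GMR86E01 (pum, −0.97). In whole brain 2 of these rose (Sxl, 0.61, and brat, 0.43) and 1 fell, and 18 of the 20 were lower and 1 higher in sorted glia than in whole brain, led by mub (−2.43) and sm (−2.33). Of 7 hnRNP genes, 2 rose with age in sorted GMR10E12 glia (Hrb27C, 1.27, and sqd, 0.98) and 3 rose in whole brain (Hrb87F, 0.43, and glo, 0.36, among them). In sorted glia against whole brain 5 of the 7 were lower, led by Hrb27C (−1.54) and sqd (−1.25).

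Of the SR protein and core splicing genes, SC35 fell with age in sorted GMR10E12 glia (−0.97) and B52 rose in whole brain (0.56). In sorted glia against whole brain x16 was lower (−1.0). Among the 16 poly(A) tail and 3′ end genes, 1 or 2 changed with age in each sorted line, and pAbp, which encodes the cytoplasmic poly(A)-binding protein, rose in each. Its log2 age difference was 1.97 in GMR56F03 (adjusted p = 0.0014), 2.19 in GMR10E12 (adjusted p = 2.6e-04) and 1.72 in GMR86E01 (adjusted p = 0.0084). The other call among these genes in sorted glia was ZC3H3, which fell by 0.82 in GMR56F03. The age difference of pAbp was larger in sorted glia than in whole brain by 1.96, 2.03 and 1.82 in GMR56F03, GMR10E12 and GMR86E01 (adjusted p = 0.0149, 0.0199 and 0.0094). In whole brain 2 of the 16 rose and 1 fell, with twin (−0.45) and su(f) (0.33) as the largest changes, and in sorted glia against whole brain 8 of the 16 were lower and none higher, led by wisp (−1.75) and pAbp (−1.27).

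Gene length was set beside these values because 6 of the 10 genes are so long. Among other protein-coding genes that span at least 53310 bases, the span of bru2, 20 of 250 rose and 17 fell with age in sorted GMR56F03 glia, 11 of 250 rose and 28 fell in GMR10E12, 27 of 251 rose and 10 fell in GMR86E01, and 75 of 257 rose and 18 fell in whole brain. In the same order 14.8%, 15.6%, 14.7% and 36.2% of them were called, against 15.0%, 9.58%, 6.44% and 21.4% of all genes tested. Their median log2 age difference was 0.07, −0.11, 0.62 and 0.16, against 0.03, −0.00, 0.11 and 0.02 over all genes tested. In sorted glia against whole brain 34 of 259 such genes were higher and 190 lower, with a median of −1.19, against −0.07 over all genes tested. Calls covered 86.5% of these long genes and 59.1% of all genes tested. The minimum span was chosen with the values of the 10 genes known.

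The genes whose group means followed mbl most closely over the 12 groups were Rpb10, which encodes a subunit of RNA polymerases, oc, a homeobox gene also called orthodenticle, and Tps1, with Pearson correlations of 0.95, 0.95 and 0.92 of log2 CPM among 10412 genes. Those nearest to elav were nAChRalpha5, a nicotinic acetylcholine receptor subunit, Spred and Drl-2, at 1.00 each. Within the set, the group means of bru3 (0.99), fne (0.99), shep (0.98) and Rbp9 (0.96) followed elav, those of cpo less closely (0.81), and those of bru1 (0.63), bru2 (0.54), mbl (0.48) and Pabp2 (0.45) least. These coefficients describe 12 points that share the large difference of sorted libraries from whole brain, and the adjacent genes bru1 and bru2 had a coefficient of 0.27.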

How the data were processed

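RNA of sorted glia and whole brain was sequenced with a modified Smart-seq3 protocol in 36 libraries (12 groups of 3 replicates). The authors aligned the paired reads to dm6 with STAR 2.7.3a and counted reads per FlyBase gene in union mode, and the deposited table holds these counts, not normalized, for 17562 genes. Use of strand and collapsing of molecular identifiers are not given in the sources used here. Every column was matched to a sample by its title (0 columns were left unused), and no row lacked a gene name. Columns of different libraries were not identical.

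These counts were tested in R 4.3.3 with the two-sided quasi-likelihood test of edgeR 4.0.16, after TMM scaling and the tool's default removal of low counts. P-values were adjusted over all genes tested by the Benjamini-Hochberg method, and an adjusted p below 0.05 is termed a call. The standard error is the size of the log2 difference divided by the square root of F, and 95% intervals use it with the t quantile at the total degrees of freedom of the fit, prior included. Age was tested within each sorted line and in whole brain with line as a covariate, sorted glia against whole brain with line and age as covariates, and differences in age effect as interactions. CPM used TMM totals over the 36 libraries, and likeness of patterns log2 CPM with a pseudocount of 1. The fits were tested on simulated data.

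The 10 genes, the marker lists and the lists of other RNA-binding genes were chosen with earlier results of these data known. The text names the 10 genes in the age and tissue comparisons, and in the interactions those called and some of the others. It also names the 2 called genes with the largest change of each of the 4 other lists, and the 3 genes most like mbl and elav. For the SR protein and core splicing genes some results are not reported here. Gene positions and exon lengths are from Ensembl's BDGP6.54 annotation, to which 95.9% of the symbols matched. It is a later release than the authors' gene models, so levels per kb are approximate. Libraries of 912285 to 17060052 counts put 3 counts at 0.171 to 3.86 CPM. PCR copies are not independent molecules, so this floor covers counting error only.

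Alternatives were DESeq2 1.42.0, its size factors, library totals without TMM, no filter or a minimum of 10 counts per library, a replicate block, a single fit of the 36 libraries, single lines, and each library left out in turn. Leaving out the 2 shallowest or the 2 whole brain libraries with over 10% ribosomal RNA counts was chosen after seeing the data. Unsorted suspensions came from the same brains as the sorted cells, but no source used here ties their replicate numbers, so libraries were not treated as pairs.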

Additional observations from a re-analysis of the deposited data

Results flagged for a closer look

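Differences in age effect between groups were past the threshold for 6 values. Beside them, the age difference of mbl was larger in sorted GMR10E12 glia than in sorted GMR56F03 glia by 1.85 on the log2 scale and larger than in sorted GMR86E01 glia by 1.95, both descriptions with no test because mbl was chosen for its change in GMR10E12. The age difference of bru3 was −1.61 and that of Rbp9 −1.34 in sorted GMR10E12 relative to sorted GMR86E01 glia. The age difference of cpo was larger in sorted glia than in whole brain of GMR56F03 by 1.97. In GMR86E01 it was larger in sorted glia than in whole brain by 1.75 for bru3, 2.56 for cpo and 1.12 for shep, in a line whose sorted libraries also had neuron marker sums of 3423 to 4717 CPM at d70 and 1218 to 2234 CPM at d5. The part of neuronal RNA in these values was not tested. Groups of 3 libraries were not searched for single outlying libraries.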

How the results depend on the processing

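Of 2294 values of the 10 genes under alternatives, 2118 stayed on their side of the threshold, 110 lost and 66 gained a call, and no called value changed sign. The cause of the changes below was not tested. Wherever 1 of the 10 was called for the age effect in GMR10E12 against whole brain, that gene was mbl. Its change in sorted GMR10E12 glia led to its choice, so nothing is read from that call. Other counts of the 10 for contrasts with sorted GMR10E12 or GMR86E01 glia can include mbl or elav and are descriptions.

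DESeq2's test called 1292 genes for age in sorted GMR10E12 glia (edgeR 825) and 1224 genes and 8 of the 10 in sorted GMR86E01 (553 and 5). For the interactions it called 289 genes between GMR10E12 and GMR56F03 (64), 1224 between GMR10E12 and GMR86E01 (787) and 740 between GMR56F03 and GMR86E01 (241). For the age effect in sorted glia against that in whole brain it called 293 genes and 1 of the 10 in GMR10E12 (43 and 0), 437 and 4 in GMR56F03 (179 and 1), and 895 and 5 in GMR86E01 (401 and 3).

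1 fit over the 36 libraries called 733 genes for age in GMR56F03 (1297), 1242 in GMR10E12, 2226 genes and 9 of the 10 in GMR86E01, 1704 and 6 between GMR10E12 and GMR86E01, and 708 and 1 between GMR56F03 and GMR86E01. For the age effect against that in whole brain the same fit called 293 and 1 in GMR10E12, 6 and 0 in GMR56F03 and 786 and 6 in GMR86E01. No filter called 257 genes between GMR10E12 and GMR56F03, and for the age effect against whole brain 1 of the 10 in GMR10E12 and 2 in GMR56F03. A minimum of 10 counts in every library called 3014 genes in sorted glia against whole brain (6153), 95 genes and 1 of the 10 in GMR10E12 and 2 of the 10 in GMR56F03 for age against whole brain. Library totals called 400 genes between GMR56F03 and GMR86E01, and 1 of the 10 for the age effect in GMR10E12 against whole brain.

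Sorted and whole brain libraries came from the same brains, but only a shared replicate number links single libraries, and the main tests did not pair them. Deviations from the group means of 18 same-numbered pairs of sorted and whole brain libraries correlated at −0.00 to 0.24 (mean 0.08), 6 of them over 0.1. Among the 3 replicates of the other tissue, 27 of 36 libraries correlated best with their own number. With the replicate block 16, 111 and 212 genes differed in age effect from whole brain in GMR10E12, GMR56F03 and GMR86E01. It called 540 genes for age in GMR10E12 and 128 between GMR56F03 and GMR86E01, shep lost its call in GMR10E12 (adjusted p = 0.0858) and GMR86E01 (0.0519) and cpo in whole brain (0.0618) and in the age effect of GMR86E01 against whole brain (0.0590), and Rbp9 in GMR56F03 (0.0169), bru1 in GMR86E01 (0.0249) and bru2 in sorted glia against whole brain (0.0182) gained one.

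Single lines called 1086 (GMR56F03), 3 (GMR10E12) and 534 (GMR86E01) genes for age in whole brain (2067), with 0 of the 10 in GMR10E12 and 2 in GMR86E01, and GMR10E12 alone 3630 for sorted glia against whole brain. Without the 2 whole brain libraries rich in ribosomal RNA, 9 genes and 1 of the 10 (mbl, a description) differed in age effect from whole brain in GMR10E12.

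Leaving out 1 library at a time gave 829 to 1283 genes for age in GMR56F03, 301 to 590 genes and 1 to 3 of the 10 in GMR10E12, and 201 to 512 genes and 1 to 7 of the 10 in GMR86E01, lowest without d70 replicate 3. The interactions ranged over 22 to 141 genes and 1 to 2 of the 10 (GMR10E12, GMR56F03), 507 to 984 genes (GMR10E12, GMR86E01) and 42 to 601 genes and 0 to 1 of the 10 (GMR56F03, GMR86E01). Against whole brain they ranged over 6 to 90 genes and 0 to 1 in GMR10E12, 58 to 455 and 1 to 3 in GMR56F03, and 128 to 843 and 1 to 6 in GMR86E01.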
